A study of Mus musculus with 8 samples.

Results

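Serpins are a family of proteins that mostly block serine and cysteine proteases. The mouse family was taken as the protein-coding genes of the deposited table whose symbol is Serpin, a clade letter from a to i and a number, which gave 61 genes of 54532 in the table. Clade A held 24 genes, clade B 26, clade E 3, clades F and I 2 each, and clades C, D, G and H 1 each. Of the 61 genes, 16 reached at least 0.5 FPKM (fragments scaled by gene length and library) in at least 4 libraries and were tested, 23 had reads but stayed under that limit, and 22 had no read in any library.

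Brown adipose tissue, the fat that burns fuel for heat, was taken for RNA sequencing from 4 mice labelled CLCF1-ATG (TG) and 4 wild-type mice (WT). The series compared the genotypes to learn how CLCF1, a relative of interleukin-6, affects brown fat. No treatment is labelled, and the sources used here do not give the promoter of the transgene, the age, the sex or the strain. Since the tissue was sequenced whole, fewer cells of a type and less RNA per cell cannot be told apart in any value below.

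An inhibitory serpin offers a protease an exposed stretch near its end, the reactive centre loop, as bait. When the protease cuts the loop, the serpin changes shape, and the protease stays trapped on it in a complex that receptors such as LRP1 clear. A few members have lost this activity and serve as chaperones or signals, and many clade A members are made by the liver and released into blood during the acute-phase response. The mouse has many copies of the gene that humans have once as SERPINA3, next to each other on chromosome 12, and the copies differ most in the loop.

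The loops of Serpina3n, Serpina3m and Serpina3c, the 3 Serpina3 genes with the highest mean FPKM in TG, show that difference. The sequences below are coding strand, 5′ to 3′, from the GENCODE M21 transcripts of the mm10 assembly. The capitals mark the stretch between the conserved hinge and the conserved end, where the protease cuts.
Serpina3n: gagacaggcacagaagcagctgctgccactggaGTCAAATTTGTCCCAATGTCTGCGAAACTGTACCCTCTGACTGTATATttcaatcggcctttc
Serpina3m: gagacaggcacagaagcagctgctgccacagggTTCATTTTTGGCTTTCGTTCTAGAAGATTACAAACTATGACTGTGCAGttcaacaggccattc
Serpina3c: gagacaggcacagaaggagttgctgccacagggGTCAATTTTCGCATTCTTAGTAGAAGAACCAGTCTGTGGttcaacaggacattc
They span codons 365 to 396 of 418 in Serpina3n and Serpina3m, and codons 365 to 393 of 417 in Serpina3c. The capitals hold 48 bases in Serpina3n and Serpina3m, and 39 bases in Serpina3c. In the capitals, Serpina3n and Serpina3m shared 25 of 48 aligned bases (52.1%), against 1046 of 1209 bases (86.5%) in the rest of their coding sequence. The alignment with Serpina3c has 9 gap positions in the capitals. Over positions where both genes have a base, Serpina3n and Serpina3c shared 24 of 39 bases (61.5%) there and 86.8% elsewhere, and Serpina3m and Serpina3c shared 30 of 39 bases (76.9%) there and 90.6% elsewhere. These figures describe the genes and use no measurement of the mice.

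The transcript named in the genotype label was examined before the serpins. Clcf1 averaged 84.5 ± 4.75 FPKM in TG (SD, n = 4; 78.7 to 89.9) and 2.15 ± 1.28 FPKM in WT (SD, n = 4; 0.434 to 3.40), with no overlap (exact two-sided permutation p = 0.0286, the smallest that 70 assignments allow). The table has 1 value for Clcf1, which cannot separate the transgene from the mouse's own gene. Recovered reads numbered 18494022 to 20183840 in the TG libraries and 13734231 to 15751302 in the WT libraries, of which mitochondrial genes took 6.09% to 7.34% in TG and 24.1% to 37.5% in WT. The 10 brown adipocyte markers, all of which passed the limit of 0.5 FPKM, summed to 638 to 1053 FPKM in TG and 6990 to 9908 FPKM in WT, and 9 of them were lower in TG.

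Of the 16 tested serpin genes, 7 were higher and 1 was lower in TG, and 8 did not pass the threshold (limma on log2(FPKM + 1), Benjamini-Hochberg adjusted p under 0.05). Among all 12508 genes tested, 44.1% passed, 22.3% as higher and 21.8% as lower in TG. After division by all recovered reads, 5536 genes were higher and 1442 lower in TG, with 9 serpins higher and none lower. The groups did not overlap for 6 serpins, all of them with TG above. Over all genes tested they did not overlap for 42.6%, 22.1% with TG above and 20.5% with TG below. Because a gene could pass the limit of 0.5 FPKM through the TG libraries alone, these counts describe the 16 genes and not the family. The median log2 change, TG minus WT, was 0.11 for the 16 serpins and 0.01 for all genes tested. The 5 genes with the largest rises on this scale were Serpina3n, Serpina3m, Serping1, Serpina3c and Serpina3g, 4 of them from the Serpina3 cluster.

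**Figure D1:**
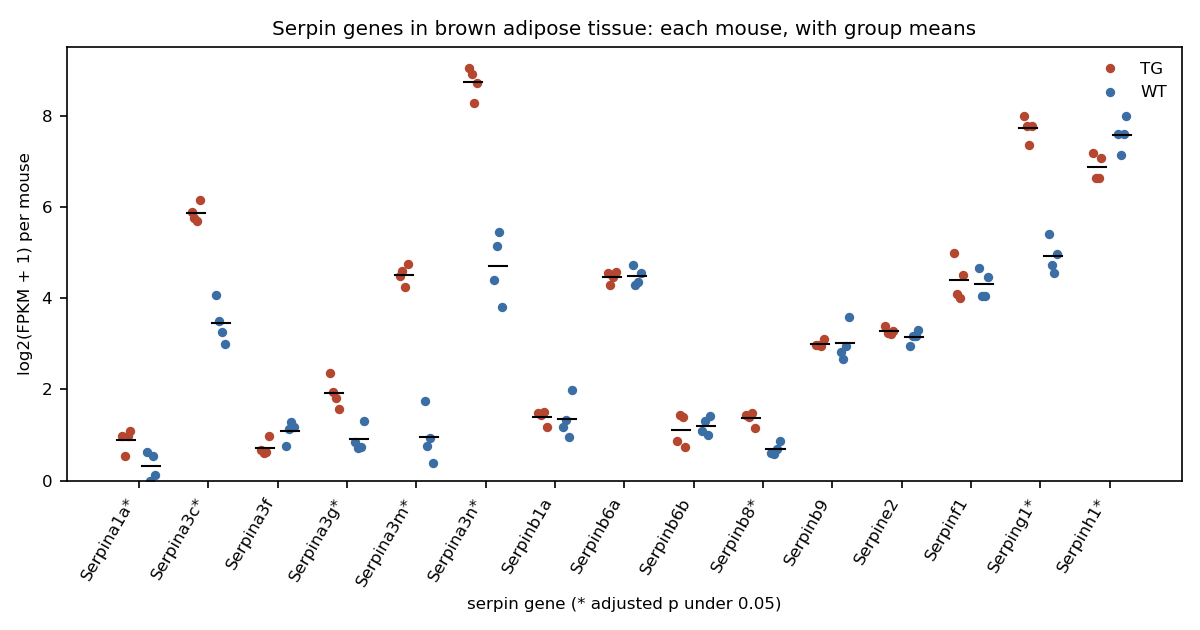
Level of the named serpin genes that passed the limit in every mouse, on the log2(FPKM + 1) scale, with TG in red left of WT in blue and a black line at each group mean (n = 4 each). An asterisk marks an adjusted p under 0.05 (limma, Benjamini-Hochberg). The TG points of Serpina3n, Serpina3m, Serpina3c, Serpina3g, Serpinb8 and Serping1 lie above all WT points.

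Serpina3n, the mouse counterpart of human antichymotrypsin and an acute-phase inhibitor of leukocyte proteases such as cathepsin G and granzyme B, had the largest rise on the log2(FPKM + 1) scale, while the ratio of the means was higher in Serpina3m. Serpina3n (ENSMUSG00000021091, chr12:104406729-104414329, plus strand, mm10) stood at 531, 480, 312 and 420 FPKM in TG 1, 2, 3 and 5, against 20.2, 34.2, 42.9 and 12.9 FPKM in WT 1, 2, 3 and 5. Every TG mouse was far above every WT mouse, and the lowest TG value belonged to TG 3. The means were 436 ± 94.2 FPKM in TG and 27.5 ± 13.5 FPKM in WT (SD, n = 4 each), a 15.8-fold ratio, and the log2 change was 4.04 (SE 0.33; limma, Benjamini-Hochberg adjusted p = 1.73e-05). The values rest on 81715 recovered reads in TG and 2922 in WT.

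Serpina3m, a neighbouring copy, rose too, at a lower level. Serpina3m (ENSMUSG00000079012, chr12:104338486-104394257, plus strand) stood at 21.4, 23.1, 17.8 and 25.8 FPKM in TG 1, 2, 3 and 5, against 2.37, 0.692, 0.919 and 0.305 FPKM in WT 1, 2, 3 and 5. The groups did not overlap, and WT 1 was the highest of the WT mice. The log2 change was 3.56 (SE 0.26; limma, Benjamini-Hochberg adjusted p = 8.64e-06), and the ratio of the means, 22.0 ± 3.33 FPKM in TG to 1.07 ± 0.902 FPKM in WT, was 20.6. Its annotated span starts at the same base as Serpina3k on the same strand, so reads of both could be split between them. Serpina3k averaged 0.212 FPKM in TG and 0.0622 FPKM in WT.

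Serpina3c was the second most abundant member of the cluster. Serpina3c (ENSMUSG00000066361, chr12:104146382-104153870, minus strand) stood at 58.0, 53.6, 50.7 and 70.6 FPKM in TG 1, 2, 3 and 5, against 15.7, 10.3, 8.53 and 6.99 FPKM in WT 1, 2, 3 and 5. All TG values exceeded all WT values, and the log2 change was 2.42 (SE 0.21; limma, Benjamini-Hochberg adjusted p = 2.46e-05). It is the only tested Serpina3 gene that is read from the minus strand.

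Serpina3g, which stays inside the cell and blocks cysteine cathepsins, was scarcer. Serpina3g (ENSMUSG00000041481, chr12:104236245-104241939, plus strand) stood at 4.14, 2.83, 2.52 and 1.99 FPKM in TG 1, 2, 3 and 5, against 0.806, 0.636, 0.679 and 1.49 FPKM in WT 1, 2, 3 and 5. The lowest TG mouse, TG 5, was above the highest WT mouse, WT 5. The log2 change was 1.02 (SE 0.19; limma, Benjamini-Hochberg adjusted p = 0.00224).

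Serpina3f, the copy next to Serpina3g, was on the other side of 0. Serpina3f (ENSMUSG00000066363, chr12:104214544-104221129, plus strand) stood at 0.605, 0.515, 0.535 and 0.972 FPKM in TG 1, 2, 3 and 5, against 0.704, 1.20, 1.45 and 1.26 FPKM in WT 1, 2, 3 and 5. TG 5 lay above WT 1, so the groups overlapped. The log2 change of −0.37 (SE 0.14; limma, Benjamini-Hochberg adjusted p = 0.0598) did not pass. It passed as lower in TG without TG 5 (adjusted p = 0.0373), without WT 1 (0.0159), after quantile normalisation (0.0429) and among protein-coding genes alone (0.0471).

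Serpina1a, one of the mouse copies of alpha-1-antitrypsin, the inhibitor of neutrophil elastase, was near the limit of detection. Serpina1a (ENSMUSG00000066366, chr12:103853589-103863562, minus strand) stood at 0.985, 0.464, 0.980 and 1.12 FPKM in TG 1, 2, 3 and 5, against 0.556, 0, 0.452 and 0.0954 FPKM in WT 1, 2, 3 and 5. WT 1 exceeded TG 2, so the groups overlapped. The log2 change was 0.58 (SE 0.18; limma, Benjamini-Hochberg adjusted p = 0.0257). The call was lost in 8 of 20 alternatives, among them leaving out TG 1 (adjusted p = 0.0638), TG 3 (0.0630), TG 5 (0.0699), WT 2 (0.0671) or WT 5 (0.0594).

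How far reads could be split between copies was read from the transcripts. Of the 50-base windows of Serpina1a transcripts, only 32.6% occurred in no other gene's transcripts, and most of the rest were shared with Serpina1c. For the Serpina3 genes this share was 95.7% in Serpina3c, 93.1% in Serpina3n, 89.3% in Serpina3f, 84.0% in Serpina3g and 80.9% in Serpina3m, whose shared windows lay mostly in Serpina3k. With windows of 100 bases, Serpina3n was 99.8% and Serpina3m 93.9% unique, and Serpina1a 50.1%. The sources used here do not give the read length.

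Summing the 10 protein-coding Serpina3 genes removes the split of reads among them, though not reads given to pseudogene copies or not counted at all. The sum was 521 ± 99.0 FPKM in TG (385 to 617) and 41.4 ± 13.4 FPKM in WT (23.2 to 54.5), without overlap (SD, n = 4 each). The difference of the mean log2 sums, TG minus WT, was 3.70, with a pooled SD of 0.44 between mice, and no test was run on it.

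**Figure D2:**
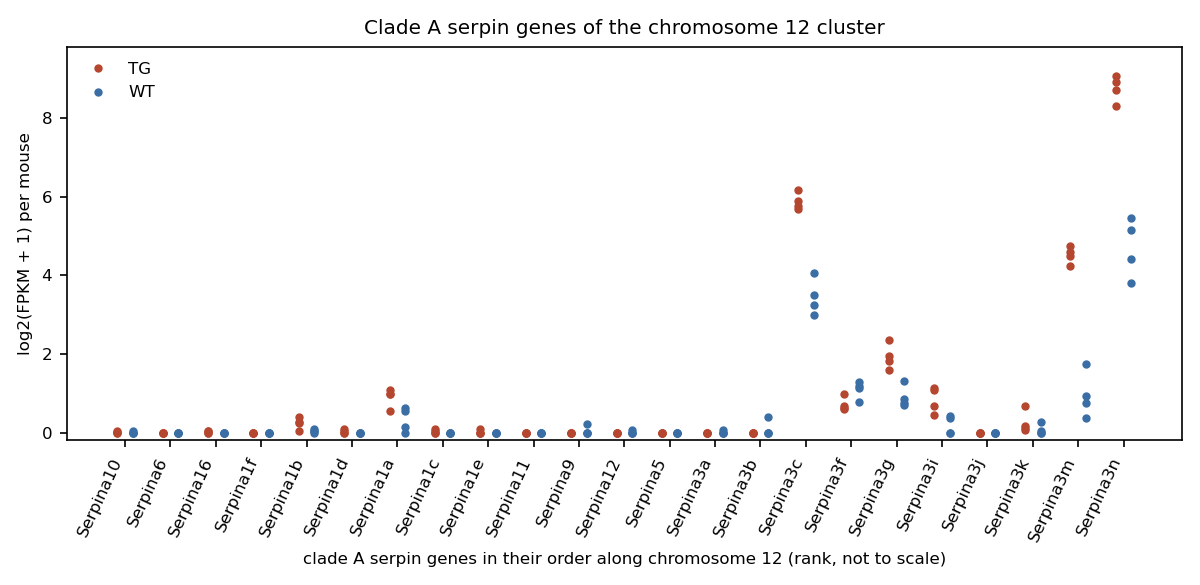
Clade A serpin genes of chromosome 12 in their order along the chromosome (rank, not distance), each mouse on the log2(FPKM + 1) scale, with TG in red left of WT in blue. Serpina3c, Serpina3g, Serpina3m and Serpina3n stand high in TG, Serpina3f between them stays near 1 in both groups, and most other genes lie at or near 0 in both groups.

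The start regions of the Serpina3 genes were compared because 4 of these genes rose while Serpina3f lay below 0. RefSeq promoters (GRCm38.p6, 250 bases before and 50 after the annotated start) matched 52 of the 61 serpin genes and 12 of the 16 tested ones. Serpina3m, Serping1 and Serpinb1a were among the tested genes without a promoter sequence. CLCF1 signals through STAT factors, whose binding core has the letters TTCNNNGAA, a motif that reads the same on both strands. It occurred in 11 of the 61 serpin windows (18.03%) and in 2726 of all 32851 windows (8.30%). Counted by gene, since some genes have several windows, it occurred in 8 of 52 serpins (15.4%) and in 2582 of 27025 genes (9.55%). Among the tested serpins it occurred in 3 of 12 (25.0%), Serpina3f, Serpina3g and Serpinb6a. Of these only Serpina3g passed as higher in the fit of the deposited FPKM. The rest, Serpina11, Serpina1f, Serpina3i, Serpinb2 and Serpinb9c, were under the limit or had no read. The 9 bases aligned to the motif of Serpina3g are in capitals in the 3 promoters below, those of genes that rose in TG.
Serpina3n (chr12:104406458-104406757, plus strand): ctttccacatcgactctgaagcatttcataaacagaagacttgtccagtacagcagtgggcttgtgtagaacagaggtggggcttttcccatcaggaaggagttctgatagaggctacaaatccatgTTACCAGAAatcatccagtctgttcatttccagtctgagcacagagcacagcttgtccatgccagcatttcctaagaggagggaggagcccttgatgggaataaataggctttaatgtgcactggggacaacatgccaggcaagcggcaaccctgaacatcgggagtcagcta
Serpina3c (chr12:104153823-104154122, minus strand): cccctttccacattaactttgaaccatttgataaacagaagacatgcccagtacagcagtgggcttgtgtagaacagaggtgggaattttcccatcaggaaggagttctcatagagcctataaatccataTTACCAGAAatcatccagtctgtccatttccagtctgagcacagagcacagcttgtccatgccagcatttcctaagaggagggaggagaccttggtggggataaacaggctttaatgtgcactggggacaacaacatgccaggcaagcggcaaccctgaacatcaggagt
Serpina3g (chr12:104235897-104236196, plus strand): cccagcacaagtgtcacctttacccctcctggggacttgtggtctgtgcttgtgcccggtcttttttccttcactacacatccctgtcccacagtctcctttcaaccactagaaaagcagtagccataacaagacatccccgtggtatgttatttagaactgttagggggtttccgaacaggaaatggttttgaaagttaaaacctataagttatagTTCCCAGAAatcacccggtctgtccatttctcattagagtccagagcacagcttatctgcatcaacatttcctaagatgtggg
Positions are counted from 1 at the 5′ end of the 9 bases, with the base of Serpina3g first. Serpina3g and Serpina3i carry TTCCCAGAA, 33 and 102 bases before their annotated starts. Serpina3f carries TTCCTAGAA, which has C5T and still matches the motif. Serpina3n and Serpina3c carry TTACCAGAA, 123 and 120 bases before the start, which has C3A and does not match. Serpina3b, with T2C, C3A and G7T, does not match either. A match describes letters only, and binding was not measured.

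Serping1, the C1 inhibitor, which blocks the complement proteases C1r and C1s and the contact proteases kallikrein and factor XIIa, rose as clearly as the Serpina3 genes. Serping1 (ENSMUSG00000023224, chr2:84765387-84775444, minus strand) stood at 256, 217, 163 and 217 FPKM in TG 1, 2, 3 and 5, against 41.7, 25.6, 22.3 and 30.5 FPKM in WT 1, 2, 3 and 5. The groups were widely apart. The means were 213 ± 38.2 FPKM in TG and 30.1 ± 8.48 FPKM in WT (SD, n = 4 each), and the log2 change was 2.81 (SE 0.20; limma, Benjamini-Hochberg adjusted p = 8.23e-06). All its 50-base windows were unique to it.

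Serpinh1, known as HSP47, a collagen chaperone of the endoplasmic reticulum that inhibits no protease, was the 1 serpin that fell. Serpinh1 (ENSMUSG00000070436, chr7:99345376-99353239, minus strand) stood at 144, 97.8, 98.2 and 135 FPKM in TG 1, 2, 3 and 5, against 193, 140, 195 and 253 FPKM in WT 1, 2, 3 and 5. TG 1 lay just above WT 2, so the groups overlapped. The means were 119 ± 24.3 FPKM in TG and 195 ± 46.3 FPKM in WT (SD, n = 4 each), and the log2 change was −0.70 (SE 0.20; limma, Benjamini-Hochberg adjusted p = 0.0180). The call was lost without TG 2 (adjusted p = 0.0554) or TG 3 (0.0524), and under 3 of the scalings: −0.29 after quantile normalisation (0.324), −0.28 after division by all recovered reads (0.232) and −0.54 after rescaling without the most abundant genes (0.0607).

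Clade B serpins mostly stay inside cells and guard them against their own or a neighbour's granule proteases. Of the 5 tested, 1 rose and 4 did not pass. Serpinb8, which blocks furin in human cells, was the one that rose: Serpinb8 (ENSMUSG00000026315, chr1:107590006-107610484, plus strand) stood at 1.70, 1.62, 1.81 and 1.22 FPKM in TG 1, 2, 3 and 5, against 0.513, 0.496, 0.612 and 0.838 FPKM in WT 1, 2, 3 and 5. All TG mice were above all WT mice, at a low level in both groups. The log2 change was 0.68 (SE 0.12; limma, Benjamini-Hochberg adjusted p = 0.00145).

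The other clade B genes lay close to 0 change. Serpinb6a, an inhibitor of cathepsin G, stood at 22.3, 18.6, 21.2 and 22.9 FPKM in TG 1, 2, 3 and 5, against 25.5, 18.6, 19.6 and 22.5 FPKM in WT 1, 2, 3 and 5. Its groups covered almost the same range, and the 95% interval of its log2 change of −0.01 ran from −0.29 to 0.26 (limma, Benjamini-Hochberg adjusted p = 0.944). After division by all recovered reads its log2 change was 0.40 (adjusted p = 0.0195). 1110046J04Rik, Nqo2 and Ripk1 overlap Serpinb6a on the opposite strand, and the strand setting of the counting is not given.

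Serpinb9, which protects cells from granzyme B, stood at 6.82, 6.89, 6.71 and 7.65 FPKM in TG 1, 2, 3 and 5, against 6.07, 5.40, 6.76 and 11.02 FPKM in WT 1, 2, 3 and 5. The TG mice lay inside the WT range, with a log2 change of −0.01 (95% interval −0.42 to 0.40). Serpinb1a, an inhibitor of neutrophil elastase, cathepsin G and proteinase 3, averaged 1.65 ± 0.259 FPKM in TG and 1.67 ± 0.891 FPKM in WT, with a log2 change of 0.04 (95% interval −0.42 to 0.50). Serpinb6b, a close copy of Serpinb6a, averaged 1.22 ± 0.549 FPKM in TG and 1.32 ± 0.307 FPKM in WT, with a log2 change of −0.09 (95% interval −0.50 to 0.33). These intervals, from the fit of the deposited FPKM, allow changes of up to about 0.5 on the log2(FPKM + 1) scale in either direction. That scale understates the change of low genes.

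In clade E, Serpine2, or protease nexin-1, an inhibitor of thrombin and the plasminogen activators, was even across mice. Serpine2 stood at 9.51, 8.43, 8.26 and 8.74 FPKM in TG 1, 2, 3 and 5, against 6.74, 8.06, 8.01 and 8.94 FPKM in WT 1, 2, 3 and 5. The groups overlapped, and the log2 change was 0.13 (95% interval −0.11 to 0.36). It passed as higher in TG only after division by all recovered reads (log2 change 0.51; limma, Benjamini-Hochberg adjusted p = 0.00564).

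Serpinf1, or PEDF, a secreted factor without inhibitory activity that fat tissue is known to make, stood at 31.0, 16.1, 15.1 and 21.7 FPKM in TG 1, 2, 3 and 5, against 24.4, 15.7, 15.6 and 20.99 FPKM in WT 1, 2, 3 and 5. The groups had nearly the same order of values, and the log2 change was 0.09 (95% interval −0.43 to 0.61).

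**Figure D3:**
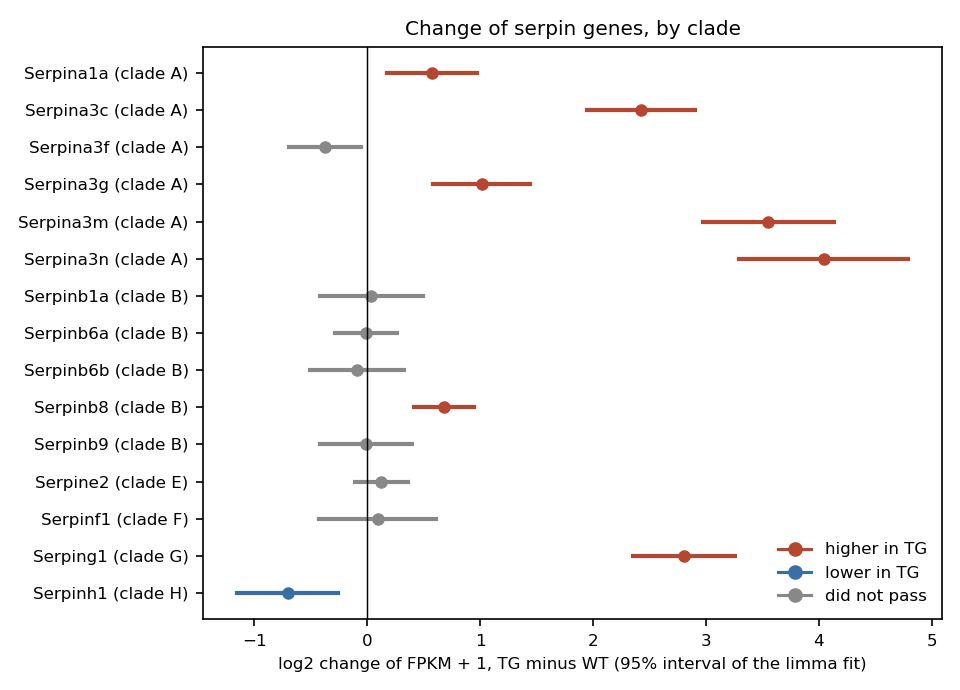
Log2 change of FPKM + 1, TG minus WT, of the named serpin genes by clade, with the 95% interval of the limma fit (n = 4 mice per group). Serpina3n, Serpina3m, Serping1 and Serpina3c lie above 2, Serpinh1 lies below 0, and 4 of the 5 clade B genes have intervals that include 0.

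The 23 genes under the limit had at most 1.19 FPKM and 63 reads in any library. Without a limit on low values, 39 serpins could be fitted. Serpini1, or neuroserpin, an inhibitor of tissue plasminogen activator in nerve cells, was the 1 gene of the 23 to pass there, with 0.167, 0.117, 0.174 and 0.0958 FPKM in TG 1, 2, 3 and 5, against 0.361, 0.326, 0.289 and 0.635 FPKM in WT 1, 2, 3 and 5. Its log2 change was −0.30 (limma without the limit, Benjamini-Hochberg adjusted p = 0.0405), with all TG mice below all WT mice. Serpina3i, another copy of the cluster, had 1.19, 0.361, 0.590 and 1.12 FPKM in TG 1, 2, 3 and 5, against 0.344, 0.301, 0 and 0 FPKM in WT 1, 2, 3 and 5. These groups did not overlap either, yet its log2 change of 0.63 narrowly missed the threshold (adjusted p = 0.0508). Serpinb2, an inhibitor of urokinase, had 5 reads over all TG libraries and 30 over all WT libraries, and Serpinc1, the gene of antithrombin, had 5 and 18. Other genes leaned the other way: Serpina1b had 40 reads over all TG libraries and 4 over all WT libraries, and Serpina3k had 38 and 6. These are unscaled reads, and the TG libraries were deeper. Only 41.2% of the 50-base windows of Serpinc1 were unique to it, and the rest occurred in Zbtb37. No other gene of the 23 passed. How small a change could be detected was not tested, and the log2(FPKM + 1) scale understates the change of low genes.

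The make-up of the serpin transcripts differed between the genotypes. All 61 genes together summed to 931 ± 168 FPKM in TG (710 to 1119) and 364 ± 47.7 FPKM in WT (304 to 412). Serpina3n made up 46.6% ± 3.42 of the sum in TG and 7.69% ± 3.79 in WT, and Serping1 made up 22.9% ± 0.191 in TG and 8.40% ± 2.68 in WT. Serpinh1 made up 12.8% ± 1.68 in TG and 53.3% ± 8.67 in WT (SD, n = 4 each). None of these shares overlapped between the groups. Each share also depends on the other members, since the whole sum was higher in TG. Serpinb6a, whose log2 change was −0.01, held 2.34% of the sum in TG and 5.98% in WT, also without overlap. In FPKM, Serpinh1 averaged 119 in TG and 195 in WT. Clade A as a whole held 56.0% ± 2.57 of the sum in TG and 11.7% ± 4.10 in WT. A chaperone was the leading serpin of WT brown fat and an acute-phase inhibitor the leading one of TG brown fat.

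**Figure D4:**
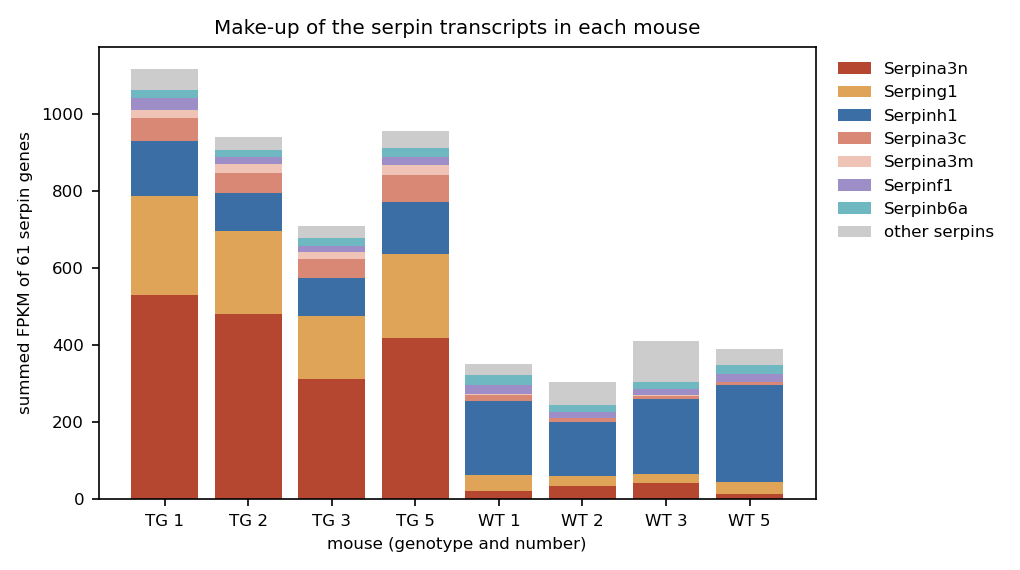
Summed FPKM of the 61 serpin genes in each mouse, TG left of WT, with 7 genes in their own colours and the other serpins in grey. The TG bars reach 710 to 1119 FPKM and consist mainly of Serpina3n and Serping1, while the WT bars reach 304 to 412 FPKM and consist mainly of Serpinh1.

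The proteases and partners of the serpins were read from the same fit in 8 lists, whose counts stand against 44.1% of all genes called, 22.3% higher and 21.8% lower. After division by all recovered reads, the lower genes numbered 2 in the plasminogen activation list and 0 in the cathepsin, receptor and procollagen lists. The complement C1 and lectin pathway list had 3 of 7 genes tested, and all 3 were higher in TG. C1ra and C1s1, the proteases that Serping1 blocks, averaged 31.5 ± 3.78 and 69.1 ± 9.51 FPKM in TG, against 5.43 ± 1.39 and 17.1 ± 3.18 FPKM in WT. Their log2 changes were 2.36 and 1.96 (limma, Benjamini-Hochberg adjusted p = 7.48e-06 and 1.18e-05), so the inhibitor and both of its target genes were higher in TG together. C1rl changed by 1.02 (adjusted p = 0.00149). The median log2 change of the list was 1.96, against 0.01 for all genes tested.

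Of the granule serine proteases, the usual targets of clades A and B, 5 of 12 were tested, 1 was higher and 4 did not pass. Their median log2 change was 0.55. The one that rose was Prtn3, proteinase 3, at 166, 263, 215 and 222 FPKM in TG 1, 2, 3 and 5, against 4.21, 1.25, 0.695 and 2.98 FPKM in WT 1, 2, 3 and 5. Its log2 change was 6.17 (SE 0.32; limma, Benjamini-Hochberg adjusted p = 1.87e-06). Prtn3 is known from neutrophil granules. The 4 tested neutrophil markers were lower in TG, and the source of the Prtn3 reads was not tested. Cma1 and Tpsb2, both mast cell proteases, had log2 changes of 0.59 (adjusted p = 0.312) and 0.47 (adjusted p = 0.117), and neither passed. Ctsg, the gene of cathepsin G, had no read in any library.

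Of 9 tested plasminogen activation genes of 11 listed, 2 were higher, 4 were lower and 3 did not pass. Their median log2 change was −0.45. Plaur, the receptor that holds urokinase at the cell surface, averaged 1.40 ± 0.679 FPKM in TG and 13.03 ± 6.16 FPKM in WT, a log2 change of −2.48 (limma, Benjamini-Hochberg adjusted p = 0.000280). Vtn, vitronectin, a protein of blood plasma and matrix, averaged 11.2 ± 3.77 FPKM in TG and 2.14 ± 0.287 FPKM in WT, a log2 change of 1.90 (adjusted p = 0.000175). Both activators were lower in TG: Plau, urokinase, by a log2 change of −1.02 (adjusted p = 0.000806), and Plat, tissue plasminogen activator, by −0.55 (adjusted p = 0.0202). Plgrkt, a plasminogen receptor, changed by −0.58 (adjusted p = 0.00117). Plau, Plat and Plgrkt were named after their values were seen, and Plg itself had no read.

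The receptors that bind serpins or their complexes gave 5 higher, 2 lower and 2 not passing among 9 tested of 11 listed, with a median log2 change of 0.44. The lower ones numbered 1 without TG 2, TG 3, WT 1, WT 2 or WT 3, after quantile normalisation or with the replicate block, and 0 without a filter or after rescaling. Lrp1, which clears serpin complexes with proteases, averaged 52.7 ± 8.68 FPKM in TG and 10.7 ± 1.69 FPKM in WT, a log2 change of 2.20 (limma, Benjamini-Hochberg adjusted p = 5.43e-06). Plxdc2, a receptor of PEDF, and Lrp6, a WNT coreceptor, changed by 1.32 and 1.02 (adjusted p = 7.61e-05 and 4.38e-05).

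Of 7 tested coagulation and contact genes of 18 listed, 1 was higher, 3 were lower and 3 stayed short of the threshold, and the median was −0.15. The 4 called of 7 are near the 44.1% of all genes, and the higher ones numbered 2 under several settings of filter and scaling and without TG 3 or WT 5, and 0 without WT 2 and TG 5. Kng2, a kininogen, from which contact proteases release kinins, averaged 0.776 ± 0.442 FPKM in TG and 36.5 ± 7.69 FPKM in WT, a log2 change of −4.41 (limma, Benjamini-Hochberg adjusted p = 1.12e-06). Tfpi2, a Kunitz-type inhibitor, and Procr, the protein C receptor, changed by −1.62 (adjusted p = 0.000286) and −0.98 (adjusted p = 0.0112). The higher one was F13a1, which cross-links fibrin, at 0.84 (adjusted p = 0.0124), named after its value was seen.

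All 10 cysteine cathepsins were tested: 5 were higher, 2 lower and 3 did not pass. Their median log2 change was 0.51. Ctso, Ctsl and Ctsk, lysosomal proteases, changed by 1.12, 0.97 and 1.44 (limma, Benjamini-Hochberg adjusted p = 0.000123, 0.000143 and 0.00191). Among 8 tested inhibitors outside the serpin family, of 25 listed, 1 was higher, 2 were lower and 5 stayed short of the threshold, and the median was −0.15. Cst3, cystatin C, averaged 667 ± 27.9 FPKM in TG and 953 ± 72.0 FPKM in WT, a log2 change of −0.51 (adjusted p = 0.00632) whose sign turned after quantile normalisation, to 0.32 (adjusted p = 0.0582). Its log2 change was −0.08 after division by all recovered reads (adjusted p = 0.597) and −0.49 without WT 2 and TG 5 (adjusted p = 0.0596). Spint2, an inhibitor of serine proteases at the cell surface, changed by −0.74 (adjusted p = 0.000651), and Itih5, an inter-alpha-trypsin inhibitor heavy chain, by 0.39 (adjusted p = 0.0301, lost in 8 of 21 alternatives).

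Serpinh1 acts on collagen beside other chaperones and enzymes, most of which were higher in TG. Of 19 procollagen folding genes and fibrillar collagens, all tested, 16 were higher in TG, 1 was lower and 2 did not pass. Their median log2 change was 0.74. P4hb, the beta subunit of prolyl 4-hydroxylase, averaged 119 ± 11.3 FPKM in TG and 44.7 ± 6.26 FPKM in WT, a log2 change of 1.40 (limma, Benjamini-Hochberg adjusted p = 2.73e-05). Col5a2, a chain of type V collagen, and P3h1, a prolyl 3-hydroxylase, changed by 1.501 and 0.89 (adjusted p = 1.97e-05 and 0.000747). The lower one, named after its value was seen, was P4ha1, the main catalytic subunit of prolyl 4-hydroxylase, at −0.86 (adjusted p = 0.0223). Its call was lost without TG 2, TG 5 or WT 3.

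**Figure D5:**
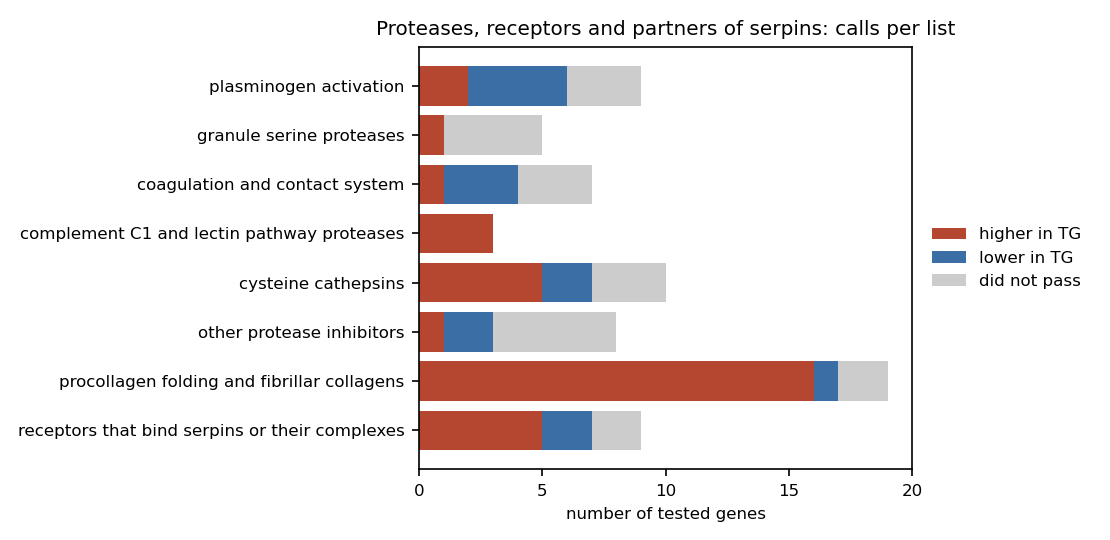
Number of tested genes per list of serpin targets and partners that were higher in TG (red), lower in TG (blue) or did not pass (grey) in limma with Benjamini-Hochberg adjustment. The procollagen list is higher in TG for 16 of 19 genes, and the plasminogen activation list has 2 higher and 4 lower.

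Markers of cells that make serpins elsewhere were set beside these values. The liver is the main source of many clade A serpins, and 12 hepatocyte markers other than Cyp2e1 summed to 0.58 to 1.93 FPKM in TG and 1.93 to 5.22 FPKM in WT, with Alb at most 0.485 FPKM in any mouse and Fgg and Cps1 without a read. Cyp2e1, which fat also expresses, stood at 86.0 to 386 FPKM in TG and 62.0 to 122 FPKM in WT. The 10 neutrophil markers summed to 2.17 to 26.6 FPKM in TG and 13.5 to 399 FPKM in WT, and 4 of 4 tested were lower in TG. The 10 macrophage markers summed to 386 to 472 FPKM in TG and 227 to 380 FPKM in WT, with 5 of 10 higher in TG and none lower. The 8 fibroblast markers summed to 572 to 708 FPKM in TG and 212 to 284 FPKM in WT, with 4 higher and 1 lower. On average the largest part of that sum was Dpt, which is also on the white adipocyte list. Dpt averaged 501 FPKM in TG and 109 FPKM in WT. The lower one was Pdgfra, with means of 1.445 FPKM in TG and 2.503 FPKM in WT. Dpt and Pdgfra were named after their values were seen. The 8 endothelial markers summed to 21.3 to 39.4 FPKM in TG and 118 to 266 FPKM in WT, with 7 of 7 tested lower. The white adipocyte markers summed to 1618 to 2092 FPKM in TG and 428 to 502 FPKM in WT, with 6 of 7 tested higher. Of the markers of all adipocytes 5 of 8 were higher, and of the T and NK cell markers 3 of 4 tested, with none lower in either list. The macrophage, white adipocyte, all-adipocyte and T and NK cell markers that passed thus moved in the direction of Serpina3n and Serping1. So did 2 of 2 tested keratinocyte markers, 1 of 2 B cell markers and 1 of 1 pancreatic acinar marker. Of 6 tested mast cell markers, 1 was lower. Over all genes tested, 22.3% were higher and 21.8% lower in TG. The fibroblast markers were split. The endothelial, brown adipocyte and neutrophil markers moved in the direction of Serpinh1. The 7 skeletal muscle markers summed to 143 to 1628 FPKM in TG and 11.8 to 2899 FPKM in WT, and none passed. The highest sums were those of TG 5 (1628) and WT 2 (2899), the pair of libraries also left out together as an alternative. The part of these cells in the serpin values was not tested.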

How the data were processed

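RNA libraries of brown adipose tissue from 4 TG and 4 WT mice were made with an Illumina TruSeq kit, per the labels' protocols. The submitters' processing notes name bcl2fastq, HISAT2 2.0.5, featureCounts 1.5.0-p3 and build mm10. The sources used here give neither their order nor the strand setting, the annotation release or the read length. The authors deposited FPKM per gene, with length, position and biotype. Multiplied by length, FPKM fell on whole steps in each library, which gave back the reads behind it for depth and read counts. These reads summed to 0.822 to 0.883 times the divisor implied by the FPKM in TG and 1.02 to 1.22 times in WT, so the FPKM hold a scaling beyond total reads.

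Genes that reached 0.5 FPKM in 4 or more libraries entered 1 two-sided limma fit (version 3.58.1, R 4.3.3; eBayes, intensity trend) on log2(FPKM + 1), with Benjamini-Hochberg adjustment over all 12508 genes at 0.05. A log2 change is TG minus WT and understates the change of low genes. Clcf1 was also compared with an exact permutation test. The fit was also run on simulated reads with few changed genes and no scaling difference between the groups. That run does not cover the scaling or the many changed genes of these data. Per the design text each library is another mouse, and no batch is labelled. Sequence windows, coding sequences and promoters came from GENCODE M21 and RefSeq tables, read with Python 3.11.15, and figures were drawn with matplotlib 3.10.9.

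Any tested serpin, any serpin under the limit, Clcf1 and up to 3 genes of lowest p per partner list could be named, and some results are not reported here. The serpins, the partner lists and the marker lists were chosen with earlier results of these data known. Alternatives covered the pseudocount, the filter, the scaling, the variance model, protein-coding genes alone, left-out libraries and a block by replicate number. Windows of 100 and 150 bases were added after seeing the data.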

Additional observations from a re-analysis of the deposited data

How the results depend on the processing

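Serpina3n, Serpina3m, Serpina3c and Serping1 kept their direction and their call in all 21 alternatives, and Serpina3g and Serpinb8 in the 20 that tested them. Over these alternatives the log2 change of Serpina3n ran from 3.74 to 4.51 and that of Serping1 from 2.68 to 3.23. Higher serpins numbered 4 with a filter of 5 FPKM, which leaves 10 serpins to test, 9 after division by all recovered reads and 6 to 7 when 1 library was left out. Lower serpins numbered 2 without a filter, 2 among protein-coding genes alone, 0 after rescaling that left out mitochondrial and haemoglobin genes and the 20 most abundant ones, 0 after division by all recovered reads, and 0 to 2 when 1 library was left out (0 without TG 2 or TG 3, 2 without TG 5 or WT 1). Over all genes, a filter of 5 FPKM gave 1445 higher and 1703 lower, of 5700 tested. Division by all recovered reads gave 5536 higher and 1442 lower, with 6 lower partner genes, and moved the median log2 change of all genes to 0.32; the rescaling moved it to 0.13. Among Clcf1, the tested serpins and the partner genes named for their lowest p, directions turned only for those that had not passed, and for Cst3 (0.32 after quantile normalisation). For Serpinb6a the log2 change was 0.041 after upper-quartile scaling, 0.0895 after quantile normalisation, 0.15 after rescaling and 0.40 after division. For Serpinb9 it was 0.039, 0.0035, 0.14 and 0.37 under the same 4 and 0.007 with voom on the recovered reads. Serpinb6b stood at 0.14 after division and, without WT 2 and TG 5, at 0.072, where Serpinf1 stood at −0.026 and Serpinb9 at −0.157. Leaving out 1 library gave −0.10 to 0.25 for Serpinb1a, −0.08 to 0.0685 for Serpinb6a, −0.20 to 0.04 for Serpinb6b, −0.12 to 0.18 for Serpinb9 and −0.11 to 0.22 for Serpinf1. Causes were not tested.

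The deviations of same-numbered mice from their group means had correlations of −0.19, −0.17, 0.04 and −0.24 for numbers 1, 2, 3 and 5. Differently numbered mice gave −0.17 to 0.39. With 4 mice per group, such values cannot tell whether the numbers pair the mice. With the replicate number as a block, 7 serpins were higher and 1 was lower, and 2389 genes were higher and 2458 lower. The 23 serpins that had reads but did not reach 0.5 FPKM in 4 libraries rest on at most 63 reads per library. Serpina1a shares most of its 50-base windows with other genes.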
